A study of Homo sapiens with 2 samples.

Results

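Matrix metalloproteinases (MMPs), the related ADAMTS proteases and their inhibitors, the TIMPs, were followed in A375 cells, a line established from a human malignant melanoma, after knockdown of THOC2, a subunit of the THO complex that takes part in mRNA export. The members were all genes on the array whose symbol was MMP with a number (and A or B where present), ADAMTS with a number, or TIMP1 to TIMP4. This gave 46 genes with 59 probes, of 34757 gene symbols on the array. There were 23 MMP genes, 19 ADAMTS genes and 4 TIMP genes.

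RNA from 1 culture transfected with NC, the control siRNA, and from 1 culture transfected with an siRNA to THOC2 (si-THOC2) was hybridized to 1 Agilent 1-colour array each, on the same slide, 48 h after transfection. Small interfering RNAs (siRNAs) guide the breakdown of mRNAs they match. The knockdown is transient, the methods give several siRNAs to THOC2, and which of them was used here is not stated. Neither condition was repeated, so how much cultures vary is not known, conditions could not be tested against each other, and each difference below is between these 2 arrays. The labels contradict themselves for both samples, since the source entry swaps the conditions that title and description give, and the latter were followed.

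Values are the scanner's processed signal, the brightness of a probe after background subtraction. Fold changes compare the arrays after each was scaled to its own 75th percentile, at a log2 signal of 6.62 (NC) and 6.31 (si-THOC2), and they are given as si-THOC2 minus NC on the log2 scale. By the scanner software, 42.3% of probes with NC and 39.4% with si-THOC2 were well above background, and the lowest such signals were 14.65 and 15.87. Every probe that met this on at least 1 array entered the comparison, and fewer expressing cells cannot be told apart from less mRNA per cell. Repeated spots of 300 probes gave a technical SD of the log2 change of 0.06 above a log2 signal of 8, 0.11 between 6 and 8, 0.29 between 4 and 6 (6 probes only), and 0.44 below 4. This SD covers spots of one array pair and not cultures. The targeted gene, THOC2, has 2 probes. One read 136 with NC and 40.94 with si-THOC2, which is a log2 change of -1.42 (technical SD 0.11), and the other read 67.27 and 35.06, a log2 change of -0.63 (technical SD 0.29), so the titles and these values point the same way.

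MMPs are zinc-dependent proteases that cut collagens, gelatin, proteoglycans and other proteins of the extracellular matrix. Most are secreted as inactive proenzymes, and some are anchored in the cell membrane. ADAMTS proteases are secreted relatives with thrombospondin repeats, several of which cut proteoglycans or process procollagen. TIMPs bind the active site of these enzymes and block it. In melanoma, MMPs have long been studied for their part in the passage of cells through basement membrane and dermis. The study tested invasion of these cells after THOC2 knockdown, and the arrays give the mRNA side of that question for the proteases.

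Several MMP genes lie next to each other on the long arm of chromosome 11, and AP-1 sites, which bind FOS and JUN proteins, are well known near their starts. The windows from 250 bases before to 50 bases after the annotated start were read from RefSeq (GRCh38.p14), which gave 28 windows for 27 of the 46 genes. Of the chromosome 11 cluster, MMP1, MMP3, MMP12 and MMP13 had no window and were not searched, nor were MMP2, MMP9, MMP16, MMP17, MMP19, MMP25, MMP28, TIMP2, ADAMTS1, ADAMTS4, ADAMTS5, ADAMTS8, ADAMTS9, ADAMTS15 and ADAMTS16, so the shares below cover the searched windows only. The AP-1 motif TGANTCA, searched on both strands, was found in 4 of these 28 windows (14.3%) and in 7.71% of all 35116 windows. Of 5 windows of the chromosome 11 cluster, 3 held it, those of MMP7, MMP10 and MMP20, and the fourth member window was that of ADAMTS12. The bases upstream of MMP7 and MMP10 are shown because they hold the motif at the same distance, with its first base 67 bases before the start, while the mRNA of MMP10 was well above background and that of MMP7 was not. Capitals mark the motif. MMP7 is shown for chr11:102530748-102530997 and MMP10 for chr11:102780629-102780878, both on the minus strand.
MMP7: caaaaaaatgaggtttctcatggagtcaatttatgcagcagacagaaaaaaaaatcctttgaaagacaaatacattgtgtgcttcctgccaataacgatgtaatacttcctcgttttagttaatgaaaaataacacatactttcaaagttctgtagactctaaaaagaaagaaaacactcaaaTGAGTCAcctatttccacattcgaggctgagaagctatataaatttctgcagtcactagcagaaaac
MMP10: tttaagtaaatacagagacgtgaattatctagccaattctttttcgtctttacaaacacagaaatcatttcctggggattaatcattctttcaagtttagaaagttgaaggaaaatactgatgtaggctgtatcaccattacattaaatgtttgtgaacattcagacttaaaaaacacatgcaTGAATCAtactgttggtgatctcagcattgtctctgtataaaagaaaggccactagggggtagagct
The core AGGAAG, a sequence that ETS factors can bind, was found in 6 of the 28 windows (21.4%) and in 33.6% of all windows. Among these were TIMP1, TIMP4 and MMP7, and the window of MMP10 held none. A match says that these letters are present and not that a factor binds them.

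Of the 59 member probes, 29 probes of 26 genes were well above background on at least 1 array, and 25 probes of 23 genes on both. MMP11 and MMP12 met the limit with NC only, and MMP3 and 1 probe of ADAMTS17 with si-THOC2 only. The remaining 30 probes were below that limit on both arrays. They left 20 genes with no measured probe, among them the collagenases MMP8 and MMP13, the matrilysins MMP7 and MMP26, the membrane-type MMP24, and MMP20, MMP21 and MMP27. The ADAMTS genes with no measured probe were ADAMTS2, ADAMTS3, ADAMTS5, ADAMTS8, ADAMTS12, ADAMTS14, ADAMTS15, ADAMTS16, ADAMTS18, ADAMTS19 and ADAMTS20, and TIMP4 was the one such inhibitor.

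**Figure D1:**
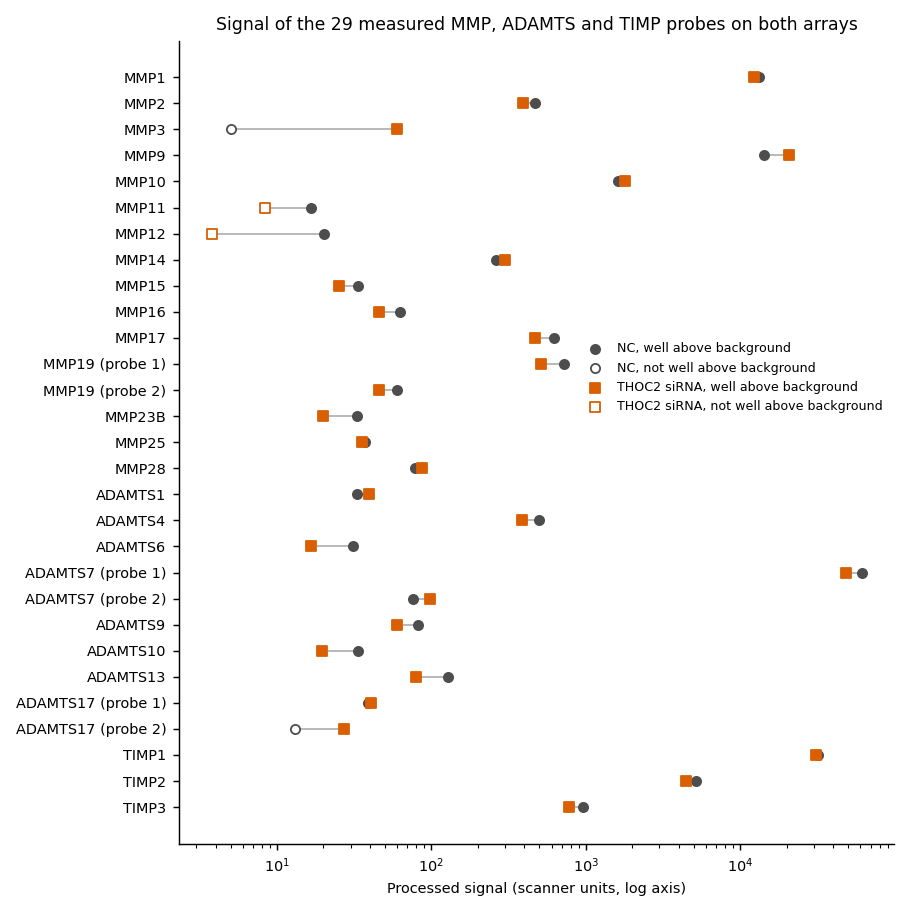
Processed signal (log axis) of each of the 29 compared member probes, with circles for NC, squares for si-THOC2, and open symbols where the signal was not well above background. Where a gene has several measured probes they are numbered. MMP3 has the widest gap, from 5.07 to 60.19, and the MMP9 square lies to the right of its circle at 20712 against 14249.

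In the comparison of si-THOC2 with NC, 1 member probe was lower by 2-fold or more as measured (MMP12) and 2 were higher (MMP3 and 1 probe of ADAMTS17). Across all 25345 compared probes, 3.33% were lower and 2.93% were higher by 2-fold or more. None of these 3 member probes was well above background on both arrays. With the dim array at its detection limit, 0 member probes were lower and the same 2 were higher by 2-fold. Of all 25345 compared probes, 225 were lower and 476 were higher in this way. A 2-fold fall of MMP12 is thus not supported. Among the 25 member probes well above background on both arrays, 0 were lower and 0 were higher by 2-fold, against 0.365% and 0.829% of all 22207 such probes. Their log2 changes ran from -0.58 to 0.85 with a median of 0.03, against a median of 0.04 over all probes on both arrays. Below 0 lay 12 of them, and above 0 lay 13, against 9565 and 12642 of all 22207 such probes. More than 2 technical SDs from 0 were 10 of the 25 (40%), with 7 higher and 3 lower. Over all probes on both arrays this share was 41.4%, with 25.5% higher and 15.9% lower. By these counts and medians, the members stood close to the whole array.

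**Figure D2:**
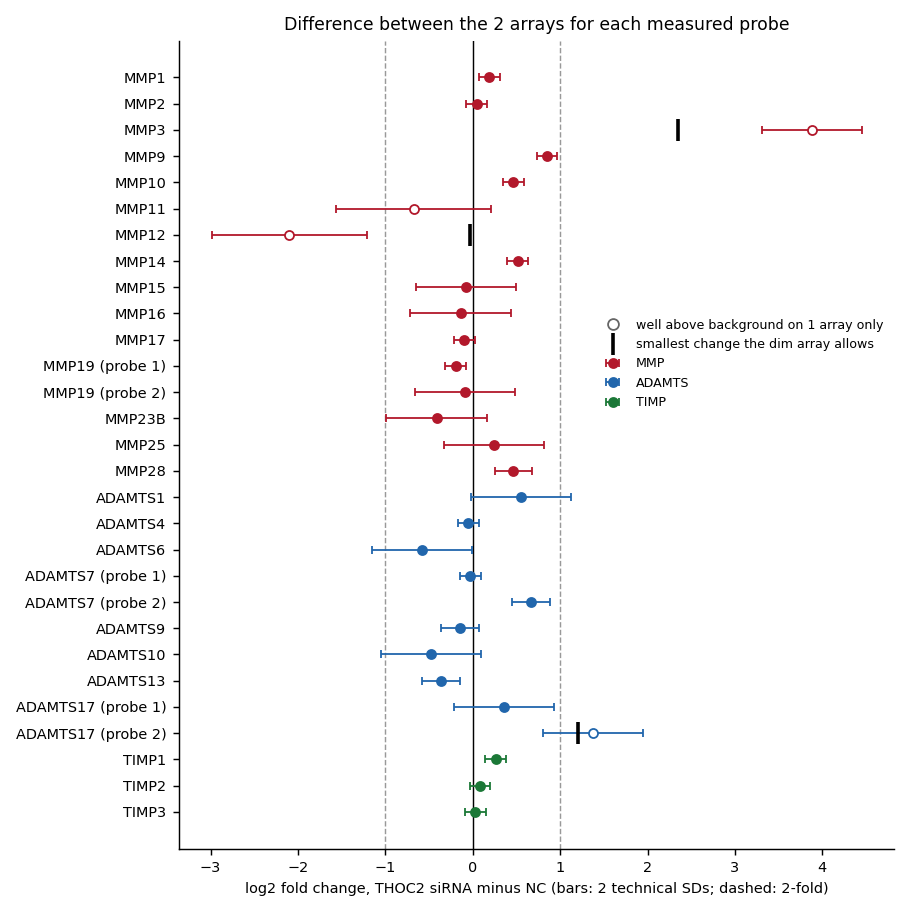
log2 change (si-THOC2 minus NC) of each measured member probe, with bars of 2 technical SDs, open circles for probes well above background on 1 array only, black ticks for the smallest change that the dim array allows, and dashed lines at 2-fold. MMP9 at 0.85 is the highest of the filled circles, and the tick of MMP12 lies near 0. MMP11 has no tick, because the limit gave no fall.

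MMP9, gelatinase B, cuts gelatin and the type IV collagen of basement membranes. It read 14249 with NC and 20712 with si-THOC2, so it was higher in raw brightness as well as after scaling. The log2 change was 0.85 (technical SD 0.06), or 1.80-fold, which is under the threshold of 2-fold. Of the 395 compared probes within 0.5 log2 of its mean signal, 0 were higher by more, and the median of those probes was 0.10. The other gelatinase, MMP2, was at 469.8 and 390.7, with a log2 change of 0.04 (technical SD 0.06), and MMP2 thus lay within 2 technical SDs of 0. The difference between these gelatinases was not tested.

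MMP3, stromelysin 1, degrades proteoglycans, laminin and fibronectin and can activate other MMP proenzymes. Its probe gave 5.07 with NC, not well above background, and 60.19 with si-THOC2. The median pixel of the spot was 47 with NC and 102.5 with si-THOC2, over local backgrounds of 25 and 24. Against the lowest signal that the NC array could call, MMP3 was at least 5.09-fold higher after THOC2 knockdown (a log2 change of at least 2.35, and 3.88 as measured). The measured fold is not supported, since the NC signal was not measured, and the limit holds for the scanner's background subtraction only. Under normexp background correction the log2 change of MMP3 was 1.08, which is below that limit. That correction was run with an offset of 50 added to every signal, which draws the changes of dim probes toward 0. The normexp value is therefore not a like measure to the limit, and the part of the offset in it was not tested. In its region of the slide, 2.70% of 185 compared probes were higher by 2-fold, and 2.93% of the whole array were. For the other MMP probes with higher values this share was 2.66% around MMP9, 0% around MMP10 and MMP1, 5.86% around MMP14 and 8.25% around MMP28, and the part of these regions in the values was not tested. MMP3 has 1 probe and 1 spot, so this difference rests on 1 spot per array.

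MMP10, stromelysin 2, has a substrate range like that of MMP3. It was at 1619 and 1802, a log2 change of 0.46 (technical SD 0.06), and 1.61% of 1610 probes of like signal were higher by more. MMP11, stromelysin 3, read 16.64 with NC and 8.39 with si-THOC2. Since MMP11 was this close to the background limit, no fold is given for it. MMP12, the macrophage elastase, read 20.09 with NC and 3.78 with si-THOC2. The limit of the si-THOC2 array allows only a statement that MMP12 was at least 1.02-fold lower. With a technical SD of 0.44 at this signal, the direction of MMP12 is not established.

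MMP1, the interstitial collagenase, starts the cleavage of fibrillar collagen. It is the only member with repeated spots, 10 on each array. Its spots ran from 12222 to 13765 with NC (median 13414) and from 11735 to 12563 with si-THOC2 (median 12339). The raw ranges overlapped, and the si-THOC2 array was the dimmer one by its 75th percentile. After scaling, the log2 change of MMP1 was 0.19 with a standard error over spots of 0.02. The median over 533 probes of like signal was 0.09, and 22.1% of those probes were higher by more than MMP1.

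MMP1, MMP3, MMP7, MMP8, MMP10, MMP12, MMP13, MMP20 and MMP27 make up the chromosome 11 cluster. Of its 9 probes, 4 were compared and 2 were on both arrays, those of MMP1 and MMP10. The log2 changes of the measured genes were 0.19 for MMP1, 0.46 for MMP10, at least 2.35 for MMP3, and -0.03 or lower for MMP12. With the main scaling, MMP1, MMP10 and MMP3 were thus higher, MMP1 by a small amount that depends on the scaling. The direction of MMP12 is not established, and MMP7, MMP8, MMP13, MMP20 and MMP27 were below the limit on both arrays. The MMP3 and MMP10 probes lie at chr11:102706694-102706753 and chr11:102641405-102641464 (hg19), and the MMP1 probe at chr11:102660697-102660756.

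**Figure D3:**
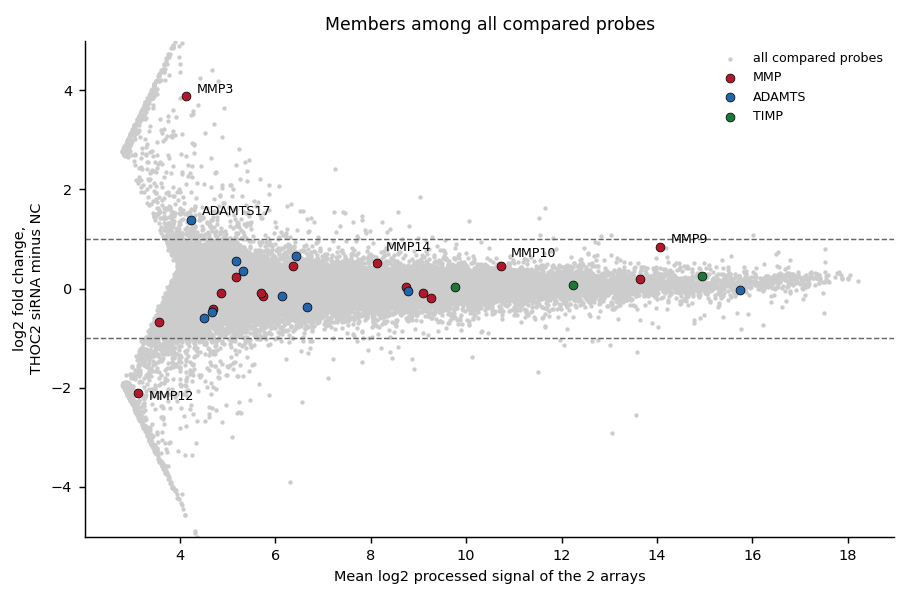
log2 change (si-THOC2 minus NC) against the mean log2 processed signal of the arrays for all 25345 compared probes (grey) and the member probes (coloured by family), with dashed lines at 2-fold. The cloud is wide at low signal and narrow at high signal, so MMP9 lies at its upper edge with a change of 0.85, while MMP3, MMP12 and the labelled ADAMTS17 probe, drawn at their measured values, lie in the wide part. The axis leaves out 6 probes beyond 5.

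The membrane-type MMPs sit on the cell surface. MMP14, MT1-MMP, cuts collagen at the cell surface and activates the proenzyme of MMP2. It read 261.1 with NC and 300.4 with si-THOC2. Its log2 change was 0.51 (technical SD 0.06), and 2.95% of 2676 probes of like signal were higher by more. MMP17 was at 625.5 and 472, a log2 change of -0.10 (technical SD 0.06). MMP15 was at 33.24 and 25.4 (log2 change -0.08, technical SD 0.29). MMP16 was at 62.72 and 45.93 (log2 change -0.14, technical SD 0.29). One probe of MMP25 was at 37.27 and 35.52 (log2 change 0.24, technical SD 0.29), and its other probe was not above background on either array. Of the membrane-type genes measured, MMP14 alone differed from 0 by more than 2 technical SDs with the main scaling. MMP17 did so too, on the lower side, under quantile normalization (-0.136), lowess centring (-0.135) and normexp background correction (-0.202). The same held for MMP17 with the 75th percentile over probes measured on both arrays (-0.155) and with the authors' normalized values (-0.136).

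MMP28, epilysin, is a secreted protease of skin and other epithelia. Its probe was at 78.29 and 87.19, a log2 change of 0.47 (technical SD 0.11), and 6.27% of 3190 probes of like signal were higher by more. MMP19 has 2 probes, and both were lower after scaling. The brighter one went from 727.5 to 512.1, a log2 change of -0.20 (technical SD 0.06), and the dimmer one from 59.95 to 45.49, a log2 change of -0.09 (technical SD 0.29). MMP23B was at 33.06 and 20, with a log2 change of -0.42 (technical SD 0.29). MMP23B lay within 2 technical SDs of 0, as did the dimmer MMP19 probe. MMP23A is a near-identical copy of MMP23B, and the RNAs of the 2 genes may not be told apart by this probe. The MMP28 probe is shown because its 60 bases are spread over chr17:34106073-34106300 (hg19, minus strand), a wider stretch than their length, so it can be matched in full only by a spliced RNA.
MMP28 probe: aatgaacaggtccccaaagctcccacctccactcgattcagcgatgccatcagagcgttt

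The ADAMTS proteases that cut proteoglycans were represented by ADAMTS1, ADAMTS4 and ADAMTS9. ADAMTS4, aggrecanase 1, was at 495 and 385.9, a log2 change of -0.05 (technical SD 0.06). ADAMTS9 was at 82.18 and 59.81, a log2 change of -0.15 (technical SD 0.11). ADAMTS1 was at 33.16 and 39.32, a log2 change of 0.56 (technical SD 0.29). None of these 3 genes lay beyond 2 technical SDs. Further probes of ADAMTS1 and ADAMTS4 were below the limit on both arrays.

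ADAMTS7 cuts COMP, the cartilage oligomeric matrix protein. It has 4 probes, which did not read alike. One probe read 61415 with NC and 48570 with si-THOC2, which is a log2 change of -0.03 (technical SD 0.06), while probes of like signal had a median of 0.12. The value of this probe depends on the scaling. It was -0.14 under quantile normalization and under normexp background correction, and -0.15 under lowess centring, each beyond 2 technical SDs. A second was at 76.31 and 97.52, with a log2 change of 0.66 (technical SD 0.11). In the slide region of this second ADAMTS7 probe, 20% of 225 compared probes were higher by 2-fold, against 2.93% of the whole array, and the part of that region in its value was not tested. The other two ADAMTS7 probes were not above background on either array. The first probe below gave the bright signal and lies at chr15:79051790-79051849 (hg19, minus strand). The second gave 8.74 and 6.75, below the limit on both arrays, and lies at chr15:79058743-79058802. They are shown because the annotation assigns both to ADAMTS7. G and C make up 75% of the first and 55% of the second.
ADAMTS7 bright probe: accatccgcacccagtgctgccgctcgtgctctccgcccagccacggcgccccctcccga
ADAMTS7 dim probe: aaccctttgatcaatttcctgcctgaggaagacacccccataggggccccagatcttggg
A probe's brightness also depends on its sequence, so no level is set against another, and whether the bright probe reads ADAMTS7 alone was not tested.

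ADAMTS13, the protease of von Willebrand factor, was at 127.4 and 79.95. Its log2 change of -0.36 (technical SD 0.11) was beyond 2 technical SDs, and 11.1% of 3119 like-signal probes lay further below. ADAMTS6, ADAMTS10 and ADAMTS17 belong to the branch linked to fibrillin microfibrils. ADAMTS6 read 30.99 and 16.7, a log2 change of -0.58 (technical SD 0.29), and 13.1% of 3812 like-signal probes lay further below. The si-THOC2 signal of ADAMTS6 was near 15.87, the lowest called on that array. Under normexp background correction, with its offset of 50, the ADAMTS6 change was -0.08. Further probes of ADAMTS6 and ADAMTS13 were below the limit on both arrays. ADAMTS10 went from 33.69 to 19.54, a log2 change of -0.48 (technical SD 0.29). ADAMTS17 had a probe on both arrays at 39.14 and 40.48, with a log2 change of 0.36 (technical SD 0.29). Its other probe was at 13.05 with NC, not well above background, and 27.31 with si-THOC2, at least 2.31-fold higher (a log2 change of at least 1.21). This limit, too, holds for the scanner's background subtraction only. Under normexp background correction, with its offset of 50, the log2 change was 0.47. In the slide region of that ADAMTS17 probe, 17.1% of 205 compared probes were higher by 2-fold, and the part of that region was not tested. Over the 10 compared ADAMTS probes the median log2 change was -0.04.

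All 3 measured inhibitors had log2 changes between 0.03 and 0.26. TIMP1, which inhibits most secreted MMPs, was at 31900 and 30865. Its log2 change was 0.26 (technical SD 0.06), and 12% of 276 probes of like signal were higher by more. TIMP2, which also takes part in the activation of the MMP2 proenzyme by MMP14, was at 5211 and 4450, a log2 change of 0.08 (technical SD 0.06). TIMP3, which binds to the matrix and also inhibits ADAM and ADAMTS proteases, was at 953.1 and 783.9, a log2 change of 0.03 (technical SD 0.06). Under quantile normalization the signs of TIMP2 and TIMP3 turned, at -0.01 and -0.03, and the values of TIMP3 and MMP2 were -0.03 and -0.02 with the 75th percentile taken over probes measured on both arrays. Under normexp background correction TIMP2, TIMP3 and MMP2 were all below 0, at -0.07, -0.01 and -0.05, and under lowess centring TIMP3 was at -0.02. The directions of TIMP2, TIMP3 and MMP2 thus depend on the scaling. Only TIMP1 of the 3 measured inhibitors lay beyond 2 technical SDs with the main scaling. TIMP1 stayed above 0 under the alternatives but was smaller under some, at 0.19 with quantile normalization, 0.15 with lowess centring and 0.12 with normexp. The normexp value is about 2 technical SDs. The probe of TIMP1 lies at chrX:47444666-47444725 (hg19, plus strand) and is shown because it carries this inhibitor's value.
TIMP1 probe: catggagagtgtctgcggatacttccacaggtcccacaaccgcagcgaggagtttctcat

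Side by side, for enzymes and inhibitors known to act on each other, the log2 change was 0.85 for MMP9 and 0.26 for its inhibitor TIMP1. It was 0.51 for MMP14, 0.04 for MMP2, whose proenzyme MMP14 activates, and 0.08 for TIMP2. Protein and enzyme activity were not measured by these arrays.

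The pathway around the members was read from lists of 48 genes, of which 47 were on the array and 35 had a compared probe. Of 50 compared probes, 1 was lower and 4 were higher by 2-fold as measured, against 3.33% and 2.93% of all compared probes, and the median log2 change was 0.13, against 0.03. Of these, the 2 higher probes of ADAM33 passed 2-fold with the dim array at its limit, and the others did not. Of all 25345 compared probes, 225 were lower and 476 were higher with that limit. On both arrays, 0 of 39 were lower and 1 was higher, against 0.365% and 0.829% of all such probes, with a median of 0.15, against 0.04.

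The activators and the plasminogen system generate active MMPs from their proenzymes. None of the 10 compared probes of this list moved by 2-fold, and 4 were below and 6 above 0. PLAT, tissue plasminogen activator, was at 2804 and 2070, a log2 change of -0.13. PLAUR, the urokinase receptor, was at 2298 and 2075, a log2 change of 0.16. SERPINE2, protease nexin 1, which inhibits plasminogen activators and thrombin, was at 17873 and 18951, a log2 change of 0.39. The technical SD was 0.06 for PLAT, PLAUR and SERPINE2, so all 3 lay beyond 2 technical SDs, PLAT on the lower side.

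Of the inducers, other inhibitors and clearance genes, SPARC, a collagen-binding matricellular glycoprotein, had the lowest log2 change. SPARC read 5252 with NC and 2851 with si-THOC2, which is a log2 change of -0.57 (technical SD 0.06), under the 2-fold threshold. BSG, basigin or EMMPRIN, an inducer of MMP production, was at 3039 and 2986, a log2 change of 0.29. TFPI2, an inhibitor of plasmin, was at 3541 and 3015 (log2 change 0.08). The bright probe of CD44, a hyaluronan receptor that can hold MMP9 at the cell surface, was at 9213 and 7261 (log2 change -0.03). LRP1, an endocytic receptor that clears MMPs, had 2 probes. One was at 97.56 and 76.25 (log2 change -0.05), and the other went from 9.45, not above background, to 22.22, at least 1.88-fold higher.

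The ADAM proteases are membrane-anchored sheddases related to the ADAMTS family. Of their 13 compared probes, 0 were lower and 2 were higher by 2-fold, both of ADAM33. One ADAM33 probe was on both arrays at 30.3 and 77.27, a log2 change of 1.66 (technical SD 0.29). Another went from 8.79, not above background, to 28.54, at least 2.41-fold higher. The third ADAM33 probe went the other way, from 24.94 to 10.81, at least 1.27-fold lower. The probes of ADAM33 therefore disagreed in sign as measured. The limit of the third probe, a log2 change of -0.34 (technical SD 0.29), lay within 2 technical SDs of 0, so its direction is not established. The bright ADAM15 probe was at 15610 and 16624, a log2 change of 0.40, and ADAM19 was at 1157 and 1052, a log2 change of 0.17 (technical SD 0.06 for both).

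The ADAMTS-like proteins have the ancillary domains of ADAMTS and no protease domain. None of their 9 compared probes moved by 2-fold. ADAMTSL5 had a bright probe at 9463 and 8479, with a log2 change of 0.15, and a dimmer one at 67.22 and 33.54, with a log2 change of -0.69 (technical SD 0.29). The ADAMTSL5 probes thus disagreed in sign. The 1 measured astacin gene, BMP1, a procollagen C-proteinase, had a log2 change of 0.37, and 4 astacin genes had no measured probe.

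Of the proteoglycan and related substrates, 1 of 7 compared probes was lower and 1 was higher by 2-fold as measured, and neither passed 2-fold with the dim array at its limit. HSPG2, perlecan, a basement membrane proteoglycan, had a bright probe at 5199 and 3819, a log2 change of -0.14 (technical SD 0.06). A dim HSPG2 probe went from 17.65 to 5.70, below the limit, where no fold can be given. COMP went from 10.26, not above background, to 17.61, at least 1.49-fold higher by the limit. The limit of COMP, a log2 change of 0.575 (technical SD 0.44), lay within 2 technical SDs of 0, so its direction is not established.

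**Figure D4:**
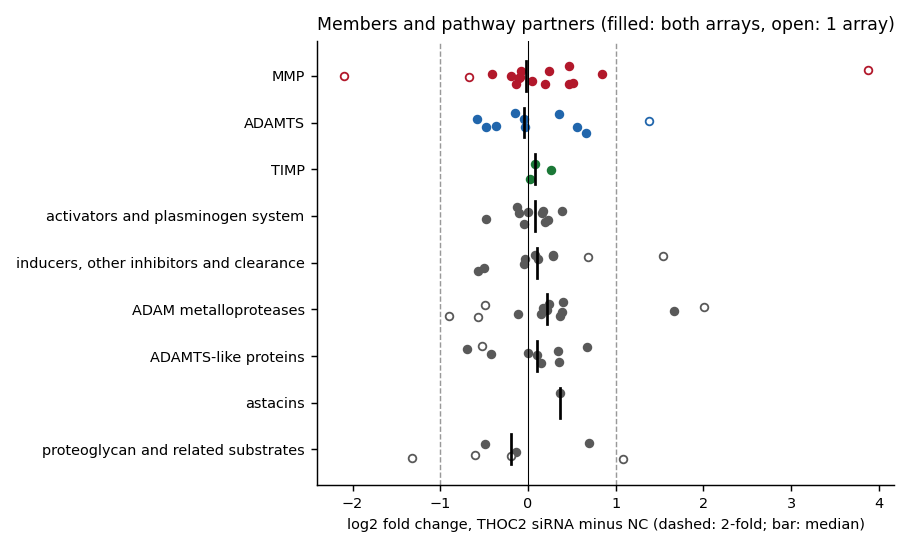
log2 change (si-THOC2 minus NC) of each compared probe, by family for the members and by list for the pathway partners, with filled circles for probes on both arrays, open circles for probes on 1 array, black bars for medians and dashed lines at 2-fold. The medians of the MMP (-0.02), ADAMTS (-0.04) and TIMP (0.08) probes lie near 0, and ADAM33 at 1.66 is the one filled circle beyond a dashed line.

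The labelled cell type was checked with marker lists. Of 8 melanocyte lineage genes, 5 had a compared probe. SOX10 was at 6196 and 5196 and both measured MITF probes at 81.53 to 273.8, with log2 changes of 0.06 for SOX10 and -0.04 and -0.02 for MITF. S100B read 198.7 and 101.5 (log2 change -0.66, technical SD 0.11) and DCT 18.02 and 24.45 (0.75, technical SD 0.29). MLANA was well above background with si-THOC2 only, at 18.7, at least 1.58-fold higher by the limit. The limit of MLANA, a log2 change of 0.66 (technical SD 0.44), lay within 2 technical SDs of 0, so its direction is not established. PMEL, TYR and TYRP1 were not above background on either array. Of 5 fibroblast genes, DCN alone was measured, at 62.36 and 148.6 (log2 change 1.56, technical SD 0.11), and LUM, PDGFRA, COL1A1 and COL3A1 were below the limit. The 4 leukocyte genes had measured probes between 24.04 and 37.38. CD3E read 25.27 and 37.38 (log2 change 0.87, technical SD 0.29), and the log2 changes of CD14, PTPRC and CSF1R were 0.37, 0.39 and -0.03. Of 3 keratinocyte genes KRT14 was measured, at 83.88 and 104.2 by one probe (log2 change 0.62, technical SD 0.11) and at least 2.28-fold higher by the other, while KRT5 and CDH1 were below the limit. The part of other cell types in the values of the proteases was not tested.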

How the data were processed

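RNA of A375 cells, 1 culture with NC and 1 with si-THOC2, was measured on 1-colour Agilent SurePrint G3 v3 arrays. The deposited scanner files hold an intensity per spot, made by the authors with Agilent Feature Extraction 10.7.1.1, which subtracts background and corrects trends over the array. The authors also deposited normalized log2 values. Their table of differentially expressed probes was not used. The methods name Student's test at a 2-fold threshold, which 1 array per condition does not allow.

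Control spots and spots with a feature outlier flag (230 on the NC array, 253 on the si-THOC2 array, of 62976 each) were left out, and 0 spots were saturated. The log2 processed signals of a probe's spots were averaged, giving 58199 probes, and the 75th percentile of the array was subtracted. A probe entered the comparison if most of its spots were well above background in either culture, and 2-fold was the threshold. Where 1 array was not well above background, the higher of its lowest well-above-background signal and the probe's own signal gave an "at least" fold. No gene average was taken, and each probe is given. Probes of like signal are compared probes within 0.5 log2 of the mean signal.

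Every member gene with a measured probe was named with its values, and of the partner genes those past 2-fold or with a log2 signal over 10, with BMP1 and second probes added after their values were seen. The members and lists were chosen with earlier results of these data known. Alternatives were other scalings, background corrections, detection filters and folds. The number of arrays limits the precision. The comparison was tested on simulated data, made from probes well above background on both arrays and with changes set on brighter probes only. That test therefore does not cover the calls of dim probes such as MMP3, MMP12 and ADAMTS17. Gene names and positions are those of the deposited annotation (hg19), and exons and UTRs were not analysed here. Python 3.11.15, numpy 2.4.6, pandas 2.3.3, statsmodels 0.14.6, matplotlib 3.10.9, R 4.3.3 and limma 3.58.1 were used.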

Additional observations from a re-analysis of the deposited data

How the results depend on the processing

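No paired analysis was possible because there was 1 array per condition. Normexp background correction was run with an offset of 50 added to every signal, which draws the log2 changes of dim probes toward 0. Normexp background correction gave 0 member probes lower and 1 higher by 2-fold, against 1 and 2, with 33 lower and 79 higher over all probes against 844 and 743, medians of 0.047 for MMP probes and -0.008 for TIMP probes, and a THOC2 mean log2 fold change of -0.52 against -1.03. Asking for detection on both arrays gave 0 and 0 members, 81 and 184 probes in all, and an MMP median of 0.043 against -0.017. No detection filter gave 2 and 7 members, 1929 and 3127 probes, and medians of 0.26 for all members, 0.19 for MMP, 0.38 for ADAMTS and 0.17 for TIMP probes, with the median of all probes at 0.31. Dim signals at their limit gave 0 members lower, and 225 and 476 probes. A fold of 3 gave 1 member higher, and 502 and 447 probes. Quantile normalization gave an ADAMTS median of -0.11 against -0.04 and a TIMP median of -0.012 against 0.082, lowess centring -0.110 and 0.007, and the authors' normalized values -0.102 and -0.012. The share of lower probes among all calls was 53.2%, 42.5% with lowess centring and 29.5% with normexp. Over these settings, the log2 fold change of MMP9 stayed between 0.75 and 0.85, MMP14 between 0.34 and 0.51, MMP10 between 0.33 and 0.46, and MMP3 between 1.08 (normexp) and 4.07. Of 257 values of single member probes under an alternative, 12 changed sign, 5 of them with normexp. The cause of these sign changes was not tested, nor was the part of the offset in the normexp values. Depth limits the dim probes: MMP3, MMP11, MMP12 and 1 ADAMTS17 probe were not well above background on 1 array.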

Other observations

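Antisense and pseudogene transcripts named after members were measured by probes of their own and belong to no list above. MMP24-AS1, an antisense RNA at the MMP24 gene, read 3181 with NC and 2854 with si-THOC2 by one probe (log2 change 0.15) and at 246.2 and 194.7 by the other (log2 change -0.03), while MMP24 itself was not above background on either array. MMP25-AS1 was at 1464 and 1421 by its brightest probe (log2 change 0.27) and at 94.3 and 77.16 by another (log2 change 0.02). ADAMTS7P1, a pseudogene of ADAMTS7, was at 191.9 and 162.8 by one of its 2 probes (log2 change 0.07). A probe of ADAMTS9-AS1 was at 16.35 with NC and 14.34, not well above background, with si-THOC2. Whether probes of a gene and of its antisense or pseudogene partner share target RNA was not tested.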
